A study of Homo sapiens with 36 samples.

Results

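The response to elevated CO2 was compared between THP-1 monocytes depleted of NR4A2 and THP-1 monocytes depleted of NR4A3. All libraries of the shNR4A2 and shNR4A3 lines were used, 24 of the 36 in the series, and the 12 libraries of the non-target line, shNT, entered only where stated. THP-1 is a human monocytic leukaemia cell line, and each line carried a short hairpin RNA delivered by lentiviral particles, with 1 line per target, so that a difference between lines is also a difference between transductions. Each line was held for 4 h at 5% or 10% CO2 in buffered medium, with no LPS or with 2.5 ug/ml LPS for the last 2 h, giving 8 conditions of 3 libraries. The question was whether 10% CO2 moved a gene by a different amount in the 2 lines, measured as the log2 fold change (10% against 5% CO2) in shNR4A2 minus that in shNR4A3, separately without and with LPS. A positive difference means a response more toward higher RNA in shNR4A2.

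NR4A1, NR4A2 and NR4A3 form a family of orphan nuclear receptors whose genes are switched on quickly by stimuli such as LPS, the bacterial cell wall product sensed by monocytes through TLR4. They bind DNA as monomers or dimers and lack the open ligand pocket of classical nuclear receptors, so that much of their control lies in how much of each is made. Hypercapnia is a raised CO2 level, which in buffered medium can be applied without a large change in pH.

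The 24 libraries held 16171161 to 23929138 counts each, with a median of 19320484.5, and levels are given as CPM, counts relative to library size, after scaling of library sizes (TMM), unless called unscaled. Of 18 monocyte markers, 17 were at 1 CPM or more in every library, with a summed level of 2780 to 3640 CPM. The 10 T and B cell markers summed to 5.38 to 20 CPM, with 6 of 10 below 1 CPM in all libraries, and the 13 markers of erythroid, platelet, epithelial and fibroblast cells summed to 2.84 to 6.52 CPM, with 10 of 13 below 1 CPM throughout. Mitochondrially encoded genes took 1.03% to 3.14% of the counts. The lowest share was in shNR4A3 at 5% CO2, replicate 2. In RNA of whole cultures, fewer cells of a kind and less RNA per cell cannot be told apart. The labels do not say whether replicates were separate cultures, so p-values measure only the spread between these libraries, which may be technical.

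The hairpins lowered their targets in most conditions. Unscaled NR4A2 RNA at 5% CO2 with LPS was 17.1 to 30.9 CPM in shNR4A2, against 43.2 to 66.9 in shNR4A3 and 58.5 to 81.5 in shNT, and at 10% CO2 with LPS it was 15.7 to 18.8 against 41.4 to 46.8 and 51.5 to 59.1 CPM. Without LPS, NR4A2 was scarce in every line, at 1.79 to 2.63 CPM in shNR4A2 and 2.83 to 3.66 in shNR4A3 at 5% CO2, and 1.21 to 1.59 against 1.99 to 2.56 CPM at 10% CO2. NR4A2 levels did not overlap between the 2 depleted lines in any condition. Unscaled NR4A3 RNA with LPS was 29.9 to 31.9 CPM in shNR4A3 against 57 to 66.6 in shNR4A2 at 5% CO2, and 22.9 to 35.7 against 82.2 to 114 CPM at 10% CO2. Without LPS, NR4A3 in shNR4A3 rested on 1 to 5 counts a library at 5% CO2 (0.0554 to 0.283 CPM) and on 6 to 8 counts at 10% CO2 (0.336 to 0.397 CPM), and at 10% CO2 this range overlapped that of shNR4A2 (0.367 to 1.03 CPM) and of shNT (0.325 to 0.675 CPM).

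**Figure D1:**
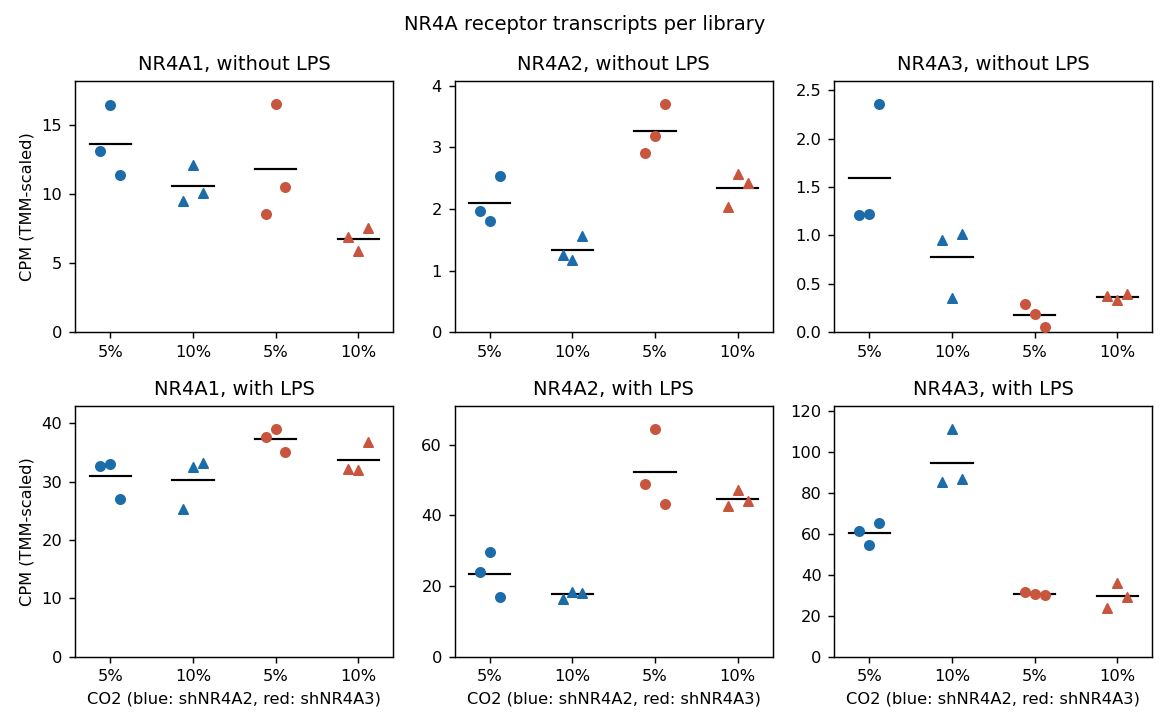
NR4A1, NR4A2 and NR4A3 RNA (CPM, vertical axis) in each of the 24 libraries, without LPS and with LPS, shNR4A2 in blue and shNR4A3 in red, circles for 5% and triangles for 10% CO2, with a bar at the mean of 3 libraries. With LPS, the 3 NR4A3 values of shNR4A2 at 10% CO2 lie above those at 5% CO2, while those of shNR4A3 overlap.

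No gene passed the test for a different CO2 response in the 2 depleted lines. Of 17720 genes tested with edgeR's quasi-likelihood test and Benjamini-Hochberg adjustment over all of them (the source of each adjusted p given here, with 0.05 as the threshold), 0 were called without LPS and 0 with LPS, or 0% of the genes in each state. At an unadjusted p under 0.05 there were 209 genes without LPS (1.18%) and 258 with LPS (1.46%), both below the 5% that this threshold allows by definition when nothing differs. Shares below 5% mean that these p-values were larger than that case gives, so the test was conservative. They are no sign that the lines were alike. With 1 replicate block over both lines the shares were 2.79% and 2.23%, and the cause was not tested. DESeq2 also called 0 genes in each state. It tested 44121 genes without LPS and 45513 with LPS, of which 160 (0.363%) and 241 (0.53%) reached an unadjusted p under 0.05. The difference between the interaction with LPS and that without LPS was tested over all 24 libraries and gave 0 calls. By edgeR 249 genes (1.41%) reached an unadjusted p under 0.05, and by DESeq2, also with 0 calls, 293 of 48733 (0.601%). These counts do not show that the lines responded alike. The 95% interval of the difference comes from a fit that takes no account of replicate numbers. It had a median half-width of 0.48 on the log2 scale without LPS and 0.53 with LPS. This interval lay within 2-fold in either direction for 67.8% and 64.2% of the genes, and within 1.5-fold for 46.9% and 43.8%.

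The response that both lines shared was larger than the spread between libraries for many genes. The mean of the 2 lines' CO2 responses was called for 941 genes without LPS (5.31%), of which 460 (2.6%) rose and 481 (2.71%) fell, and for 2592 with LPS (14.6%), of which 1186 (6.69%) rose and 1406 (7.93%) fell. Of these, 560 were called in both states, or 59.5% of the genes without LPS and 21.6% of those with LPS, and 557 of the 560 moved the same way. The interval of the difference between lines lay within 2-fold for 92.1% of the 941 genes and 86.2% of the 2592, beside 67.8% and 64.2% of all genes. A small p for the mean favours genes with a small spread, whose intervals are narrow, so the choice raises these shares. For reference, libraries at 10% CO2 were all above those at 5% CO2 for 6.75% of all genes in shNR4A2 and 11.4% in shNR4A3 without LPS, and all below for 7.23% and 10.6%, and with LPS the shares were 10.9% and 12.1% above and 10.6% and 13% below. The called genes were chosen for their mean response, so the shared direction in both lines is fixed largely by the choice. Without LPS, same-numbered libraries of a line deviated together, and with the replicate number as a block within each line the count was 2705, while the interaction stayed at 0 called with 525 genes (2.96%) at an unadjusted p under 0.05. Same-numbered libraries of the 2 lines at the same CO2 level also deviated together in both states. With 1 block over both lines the count was 2837 without LPS and 4075 with LPS. The interaction stayed at 0 called (2.79% and 2.23% of genes were below 0.05 before adjustment). This block gives a number the same effect at both CO2 levels, which with LPS the numbers were not taken to pair. A block within each CO2 level was not fitted, so that pairing of the lines is not fully used in these counts. Single libraries moved the count without LPS by over 1.5 times, to 211 without shNR4A3 at 10% CO2 replicate 2, 426 without shNR4A3 at 5% CO2 replicate 2, 536 without shNR4A3 at 10% CO2 replicate 1, 576 without shNR4A2 at 10% CO2 replicate 2 and 622 without shNR4A2 at 5% CO2 replicate 1. With LPS it was 1474 without shNR4A3 replicate 2 at 10% CO2, 1531 without shNR4A2 replicate 2 at 10% CO2 and 1685 without shNR4A3 replicate 2 at 5% CO2.

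Genes chosen in shNT cells, whose libraries entered neither depleted line, moved in the same direction in both. In shNT, 109 genes were called without LPS (0.615%, with 0.327% higher and 0.288% lower) and 1452 with LPS (8.19%, with 4.47% higher and 3.72% lower). Counting each change as positive when it had the direction seen in shNT, the median log2 change of the 109 genes was 0.508 in shNR4A2, 0.522 in shNR4A3 and 0.638 in shNT, and all 109 had the shNT direction in both depleted lines. For the 1452 genes with LPS the medians were 0.367, 0.355 and 0.453, with 1434 genes in the shNT direction in shNR4A2 and 1441 in shNR4A3. Over all genes tested, the 2 depleted lines changed with the same sign for 70.1% without LPS and 74.3% with LPS. The share of all genes in the shNT direction is not reported here. The shNT values chose the genes, so their size cannot be set against that of the depleted lines. Of the 1452 genes, 17 (1.17%) had an unadjusted interaction p under 0.05, against 1.46% of all genes. Across genes, which are not independent replicates and share library depth, and between lines whose same-numbered libraries deviated together, Pearson's r between the log2 changes of the 2 lines was 0.973 over the 109 genes and 0.93 over the 1452, against 0.314 and 0.5 over all genes tested.

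**Figure D2:**
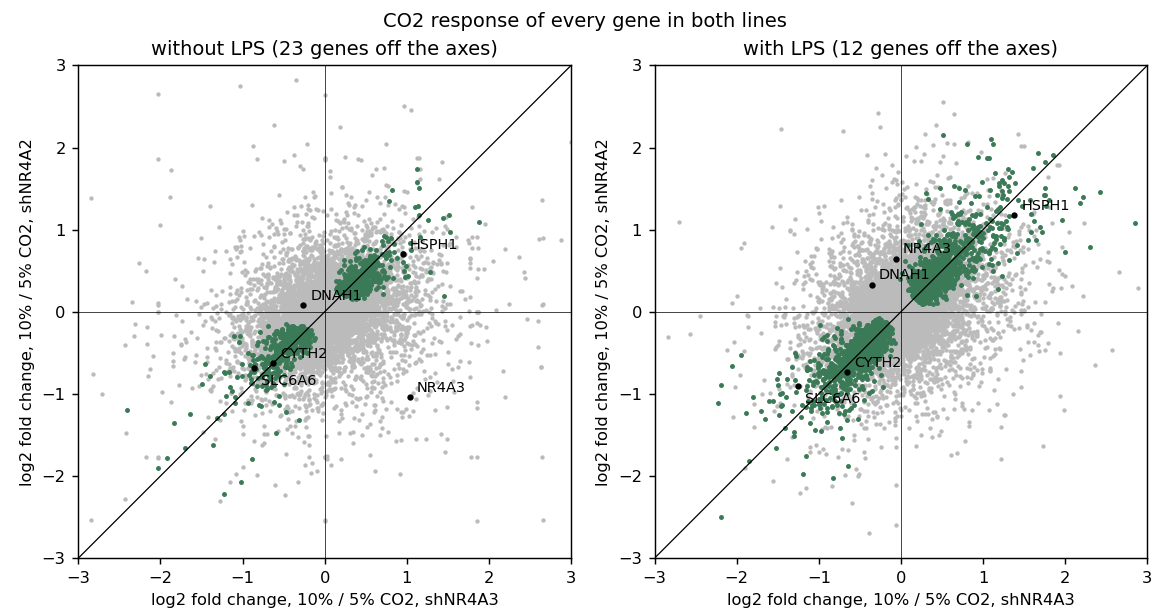
Log2 fold change at 10% against 5% CO2 of all genes tested in shNR4A3 (horizontal axis) and shNR4A2 (vertical axis), without and with LPS, green where the mean response of both lines was called. The green genes spread along the diagonal in both states, and with LPS NR4A3 stands above it at 0.65 in shNR4A2 and -0.06 in shNR4A3, while 23 genes without LPS and 12 with LPS lie outside the axes.

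Counts of genes called in a single line differed in size, but rested on little. Without LPS, 17 genes were called in shNR4A3 (0.0959%, with 0.0451% higher and 0.0508% lower) and 1 in shNR4A2 (0.00564%), and with LPS 219 (1.24%) and 186 (1.05%). With the block within line, the counts without LPS were 753 and 403. With LPS, 91 genes were called in both lines, which is 48.9% of the shNR4A2 list and 41.6% of the shNR4A3 list, all in the same direction, and of 223 called in one line only, 22 had an unadjusted interaction p under 0.05 and 0 were called for the interaction. Without LPS, 16 genes were called in shNR4A3 only, 2 of them (SPATA31C1 and TP53INP2) with an unadjusted interaction p under 0.05. Of all genes, 1.46% with LPS and 1.18% without LPS had such a p. Genes called in 1 line only are chosen on the same responses that form the difference. The choice thus favours small interaction p-values, and these counts are a description. Each of the 4 counts of genes called in a single line went to 0 when any of several libraries was left out. With LPS, shNR4A2 had 0 calls without its 5% CO2 replicate 1 or its 10% CO2 replicate 2, 11 without its 5% CO2 replicate 2, 38 and 6 without its 10% CO2 replicates 1 and 3, and 1335 without its 5% CO2 replicate 3. Leaving out shNR4A3 libraries gave 106, 450 and 52 without replicates 1, 2 and 3 at 5% CO2, and 92 and 110 without replicates 1 and 3 at 10% CO2. The shNR4A3 count with LPS was 0 without replicate 1 or 2 of either CO2 level and 67 without 5% CO2 replicate 3, and 498, 504, 134 and 120 without the shNR4A2 libraries at 5% CO2 replicates 2 and 3 and at 10% CO2 replicates 2 and 3. Without LPS, shNR4A3 had 0 calls without replicate 1 or 2 at 5% CO2 or any replicate at 10% CO2, 7 without its 5% CO2 replicate 3 or shNR4A2 at 10% CO2 replicate 1, 3 without shNR4A2 at 10% CO2 replicate 3 and 116 without shNR4A2 at 5% CO2 replicate 2. The shNR4A2 count was 9 without its own 5% CO2 replicate 3, 2 without shNR4A3 at 5% CO2 replicate 3 and 0 without any of the other 10 libraries.

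Of the 3 receptor genes, NR4A3 had the smallest p for the difference with LPS. NR4A3 lies at chr9:99821855-99866891 on the plus strand of GRCh38. In shNR4A2 it was 61.3, 54.7 and 65.3 CPM at 5% CO2 with LPS and 85.4, 111 and 86.9 CPM at 10% CO2 with LPS. In shNR4A3 it was 31.6, 30.8 and 30.0 CPM at 5% CO2 and 23.6, 35.8 and 29.0 CPM at 10% CO2. The shNR4A2 groups did not overlap and the shNR4A3 groups did. NR4A3 rose by 0.65 ± 0.13 (log2, SE) in shNR4A2 with LPS (adjusted p = 0.0405), and its change in shNR4A3 was -0.06 ± 0.14. The difference was 0.71 with a 95% interval of 0.30 to 1.12 (unadjusted p = 0.00221), which did not pass adjustment over all genes, where the adjusted p ran from 0.228 to 1 over the alternatives. NR4A3 is also the hairpin's target in shNR4A3, so what is measured in that line is the RNA left after knockdown. The difference was 0.56 to 0.87 when any 1 library was left out, while the call in shNR4A2 was lost in 8 of 12 such fits, with an adjusted p of up to 0.192 without shNR4A2 at 10% CO2 replicate 2.

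Without LPS, NR4A3 was near the limit of detection. It was 1.21, 1.22 and 2.36 CPM at 5% CO2 and 0.953, 0.357 and 1.01 CPM at 10% CO2 in shNR4A2, and 0.290, 0.184 and 0.0561 against 0.371, 0.337 and 0.395 CPM in shNR4A3. The groups of NR4A3 values did not overlap in either line, lower at 10% CO2 in shNR4A2 and higher in shNR4A3. The fitted difference was -2.07 (95% interval -3.74 to -0.41, unadjusted p = 0.0136), but it rests on 1 to 8 counts a library in shNR4A3. The NR4A3 difference with LPS minus that without LPS was 2.78 (unadjusted p = 0.00124, adjusted p = 1.00).

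NR4A1, the family member that no hairpin targeted, lies at chr12:52022832-52059507. Without LPS it was 13.1, 16.4 and 11.4 CPM at 5% CO2 and 9.53, 12.1 and 10.1 CPM at 10% CO2 in shNR4A2, and 8.54, 16.5 and 10.5 against 6.92, 5.85 and 7.56 CPM in shNR4A3. The groups overlapped in shNR4A2 and did not in shNR4A3, yet the difference of 0.44 (95% interval -0.17 to 1.06) did not pass. NR4A1 fell by 0.59 ± 0.15 in the mean of both lines (adjusted p = 0.0292), a call lost in 6 of 12 fits with 1 library left out and weakest without shNR4A3 at 10% CO2 replicate 2 (adjusted p = 0.0992). With the block within line the fall of NR4A1 in shNR4A3 passed (adjusted p = 0.033). With LPS, NR4A1 was 25.3 to 33.3 CPM in shNR4A2 and 32.1 to 39.1 CPM in shNR4A3 over both CO2 levels, with a difference of 0.12 (95% interval -0.22 to 0.47).

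NR4A2, at chr2:156324432-156342348 on the minus strand, fell by 0.56 ± 0.16 in the mean of both lines without LPS (adjusted p = 0.0494), a call lost in 11 of 12 fits that left out 1 library, with an adjusted p of up to 0.105 without shNR4A3 at 10% CO2 replicate 1. Its difference between lines was -0.18 (95% interval -0.86 to 0.50) without LPS and -0.19 (-0.73 to 0.35) with LPS. With LPS, NR4A2 in shNR4A2 was 23.9, 29.6 and 16.8 CPM at 5% CO2 and 16.4, 18.5 and 18.1 CPM at 10% CO2, and in shNR4A3 48.8, 64.5 and 43.3 against 42.7, 47.0 and 44.1 CPM. The NR4A2 groups overlapped in both lines.

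The promoter of NR4A3 is shown because its RNA had the most unlike response of the family with LPS. The sequence is the 250 bases before the gene's start in RefSeq (GRCh38.p14, plus strand, chr9:99821635-99821884), with each TGACGT, the 6-letter core of a cyclic AMP response element, in capitals. Both strands were searched, and TGACGT was found 3 times. The gene's span given above starts inside this window, before the RefSeq start, and the last of the 3 matches lies within that span.
NR4A3: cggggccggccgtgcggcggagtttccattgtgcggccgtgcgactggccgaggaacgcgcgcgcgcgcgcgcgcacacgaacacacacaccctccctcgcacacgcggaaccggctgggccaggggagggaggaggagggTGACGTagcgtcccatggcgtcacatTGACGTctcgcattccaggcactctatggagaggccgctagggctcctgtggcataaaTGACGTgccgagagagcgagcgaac
Of 35116 promoters of the same length, 7.1% held TGACGT on either strand. Of the genes tested whose promoter was searched, 12.2% held it at any of their starts. The NR4A monomer site AAAGGTCA was not found in this NR4A3 window. It was in 1.05% of promoters and, at any of their starts, in 1.06% of the genes tested. A match is a description of letters and was not tested as a site.

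Outside the receptors, the gene with the smallest p for the interaction with LPS was DNAH1, an axonemal dynein heavy chain gene at chr3:52316319-52400491. It was 20.1, 18.4 and 18.6 CPM at 5% CO2 and 24.5, 20.9 and 26.4 CPM at 10% CO2 in shNR4A2. In shNR4A3 it was 27.4, 31.4 and 29.4 CPM at 5% CO2 and 22.8, 23.6 and 22.7 CPM at 10% CO2. DNAH1 did not overlap between CO2 levels in either line and moved in opposite directions, with changes of 0.33 ± 0.10 and -0.35 ± 0.10 that each failed adjustment (adjusted p = 0.107 and 0.0896). The difference was 0.68 (95% interval 0.38 to 0.99, unadjusted p = 0.000237), and 0.61 to 0.77 with any 1 library left out, but its adjusted p over the alternatives ran from 0.799 to 1.

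In the other direction with LPS, MRPL18, a protein of the large mitochondrial ribosomal subunit at chr6:159789812-159798436, was 78.4, 79.2 and 88.1 CPM at 5% CO2 and 89.4, 95.4 and 93.1 CPM at 10% CO2 in shNR4A2. In shNR4A3 it was 70.4, 73.7 and 79.5 CPM at 5% CO2 and 109, 112 and 98.9 CPM at 10% CO2. MRPL18 did not overlap between CO2 levels in either line. It rose by 0.51 ± 0.08 in shNR4A3 (adjusted p = 0.0203, lost in 4 of 12 fits with 1 library left out, weakest without shNR4A3 at 10% CO2 replicate 2 with 0.142) and its change in shNR4A2 was 0.18 ± 0.08, a difference of -0.34 (95% interval -0.58 to -0.10, unadjusted p = 0.00942). ZC3H12D, of a family of RNases that cut cytokine messages, was 8.85, 17.0 and 12.3 CPM at 5% CO2 and 7.20, 7.39 and 9.63 CPM at 10% CO2 in shNR4A2, with overlap between them, and 9.93 to 12.4 CPM over both CO2 levels in shNR4A3, with a difference of -0.76 (95% interval -1.35 to -0.18, unadjusted p = 0.0138). Further genes of the 5 with the smallest p in each direction with LPS were below 3 CPM on average: ENSG00000271032 (1.42), ENSG00000259529 (1.33), CIB3 (-1.33), C3orf33 (-0.92) and SP2-DT (-1.14), each value being the difference on the log2 scale. ENSG00000259529 overlaps IRF9, an interferon-response factor whose own difference was 0.44 (95% interval -0.15 to 1.03), and the way overlapping genes were counted was not given in the sources used here.

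**Figure D3:**
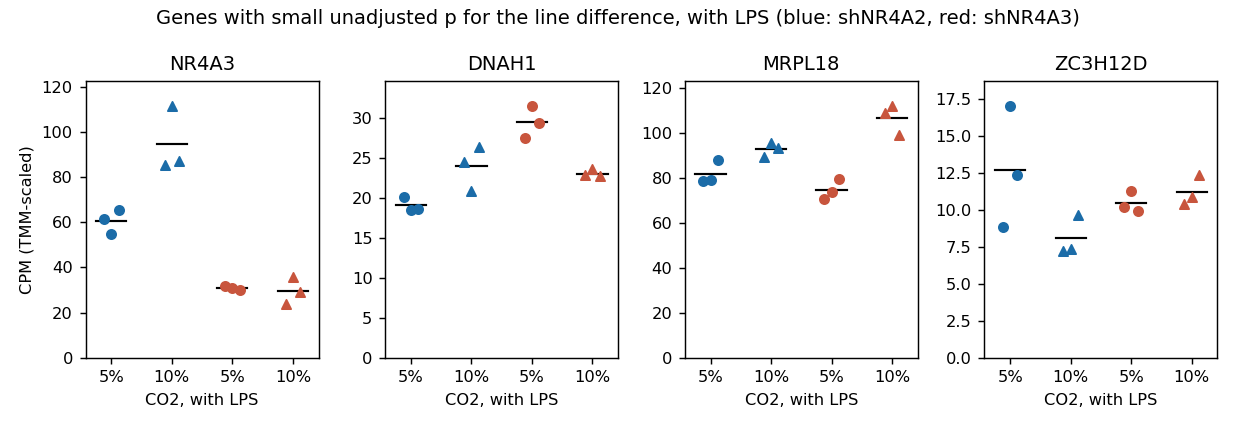
RNA level (CPM, vertical axis) of NR4A3, DNAH1, MRPL18 and ZC3H12D in the 12 libraries with LPS, by line and CO2 level, with a bar at the mean of 3 libraries. DNAH1 is higher at 10% CO2 in shNR4A2 and lower in shNR4A3 with no overlap in either line, and 0 of the 4 genes passed adjustment for the difference.

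Without LPS, the genes with the smallest interaction p were mostly scarce. SPATA31C1, a member of a family of near-identical genes between which reads can be split, was 1.21, 1.70 and 1.70 CPM at 5% CO2 and 1.43, 1.88 and 1.90 CPM at 10% CO2 in shNR4A2, and 0.697, 0.797 and 0.898 against 1.85, 2.32 and 2.37 CPM in shNR4A3. SPATA31C1 groups overlapped in shNR4A2 and did not in shNR4A3, where it rose by 1.45 ± 0.28 (adjusted p = 0.0464, lost in 9 of 12 fits with 1 library left out, weakest without shNR4A3 at 10% CO2 replicate 2 with 0.466). The difference was -1.26 (95% interval -2.04 to -0.48, unadjusted p = 0.00294). The other 9 genes of the rule without LPS were ENSG00000279605 (difference 1.34), PDZD4 (0.74), CIDECP1 (0.50), ENSG00000269388 (1.04) and POM121B (0.87) on the positive side, and ENSG00000279059 (-1.23), TRIM74 (-1.09), MIR621 (-0.71) and JUP (-0.82) on the negative side, none called. Their unadjusted p ran from 0.00535 for ENSG00000279059 to 0.0168 for POM121B. CIDECP1, POM121B and TRIM74 have near-identical copies, and MIR621 is a short miRNA precursor, so their counts are uncertain.

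Part of the genes for cytosolic heat shock proteins and their co-chaperones rose in the mean of both lines. These proteins fold nascent and damaged proteins and their genes are driven by the factor HSF1. Of 31 members, 9 rose without LPS and 0 fell in the mean response, beside 2.6% of all genes that rose, and 17 rose with LPS and 0 fell, beside 6.69%. The median log2 change without LPS was 0.21 in shNR4A2 and 0.15 in shNR4A3, and with LPS 0.28 and 0.33, beside 0.00 for all genes in each line. The difference between lines was called for 0 of 31 members in either state, with 0 at an unadjusted p under 0.05. Its median was -0.07 without LPS and -0.14 with LPS. With LPS 26 of 31 members had the higher log2 change in shNR4A3 and 5 in shNR4A2. Of all 17720 genes, 8782 had the higher change in shNR4A2. So did 2 of 24 organelle chaperones, 5 of 38 nuclear subunits of complexes I to IV and 11 of 13 mitochondrially encoded genes. Members of a list are not independent replicates. The heat shock list, like the others below, was drawn up with earlier results of these data known. The study picked out 5 of its members on these samples, so its direction is not independent evidence.

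HSPH1, a nucleotide exchange factor of HSP70, was 144, 85.8 and 182 CPM at 5% CO2 and 234, 236 and 199 CPM at 10% CO2 in shNR4A2 without LPS, and 167, 104 and 162 against 300, 303 and 233 CPM in shNR4A3. With LPS it was 128, 94.8 and 243 CPM against 363, 379 and 310 CPM in shNR4A2, and 170, 108 and 211 against 479, 482 and 308 CPM in shNR4A3. The 10% CO2 libraries of HSPH1 were above the 5% CO2 libraries in both lines and both states, and replicate 2 was the lowest at 5% CO2 in each. HSPH1 rose by 0.82 ± 0.17 without LPS (adjusted p = 0.0227) and by 1.28 ± 0.25 with LPS (adjusted p = 0.011) in the mean of both lines. With the block within line the HSPH1 call without LPS was lost (adjusted p = 0.0957), as it was in 3 of 12 fits with 1 library left out, weakest without shNR4A3 at 10% CO2 replicate 2 (0.0666). The difference between lines was -0.25 (95% interval -1.01 to 0.51) without LPS and -0.20 (-1.31 to 0.91) with LPS, an interval that allows a more than 2-fold difference with LPS.

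HSP90AA1, the inducible cytosolic HSP90, was 1473, 1317 and 1687 CPM at 5% CO2 and 2095, 2103 and 1754 CPM at 10% CO2 in shNR4A2 with LPS, and 1584, 1299 and 1623 against 2729, 2607 and 1905 CPM in shNR4A3. The HSP90AA1 groups did not overlap in either line, and its mean response was 0.55 ± 0.10 (adjusted p = 0.0035), with a difference of -0.27 (95% interval -0.69 to 0.14). FKBP4, an HSP90 co-chaperone, rose by 0.56 ± 0.07 without LPS (adjusted p = 0.00119) and by 0.56 ± 0.08 with LPS (adjusted p = 0.00126), calls kept under every alternative and every library left out. DNAJA4, an HSP70 co-chaperone, had the smallest interaction p of the list without LPS, with changes of 0.27 ± 0.12 in shNR4A2 and 0.62 ± 0.12 in shNR4A3 and a difference of -0.35 (unadjusted p = 0.0522). HSPA1A, an inducible HSP70 with a near-identical copy, was 16.3, 9.93 and 19.3 CPM against 22.3, 36.1 and 25.3 CPM in shNR4A2 with LPS, and 15.9, 11.1 and 14.3 against 44.0, 56.6 and 20.4 CPM in shNR4A3. HSPA1A did not overlap between CO2 levels in either line, and its difference of -0.67 had an interval of -1.84 to 0.51. HSPA8, the constitutive HSP70, rose in both states, by 0.52 ± 0.13 without LPS (adjusted p = 0.0381) and 0.65 ± 0.18 with LPS (adjusted p = 0.0364).

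Promoters of HSP90AA1 and HSPA8 are shown because these called members hold a 3-unit heat shock element, written in capitals. It is the 2-unit form GAANNTTC, which reads the same on both strands, followed after 2 bases by GAA, or the reverse complement of the whole. Both are the 250 bases before a RefSeq gene start on the minus strand of GRCh38.p14, HSP90AA1 at chr14:102087045-102087294, the one of 2 starts in the table that lies inside the gene's span, and HSPA8 at chr11:123062137-123062386.
HSP90AA1: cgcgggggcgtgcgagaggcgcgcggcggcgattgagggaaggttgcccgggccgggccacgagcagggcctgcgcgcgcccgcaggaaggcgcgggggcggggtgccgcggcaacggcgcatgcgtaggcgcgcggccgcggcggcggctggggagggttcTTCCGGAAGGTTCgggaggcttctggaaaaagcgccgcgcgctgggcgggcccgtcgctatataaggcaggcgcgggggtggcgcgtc
HSPA8: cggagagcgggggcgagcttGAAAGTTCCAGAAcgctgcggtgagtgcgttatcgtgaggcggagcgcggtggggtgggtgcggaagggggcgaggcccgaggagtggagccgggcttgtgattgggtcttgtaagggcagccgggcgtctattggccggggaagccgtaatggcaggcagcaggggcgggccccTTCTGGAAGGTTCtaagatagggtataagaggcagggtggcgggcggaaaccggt
Of 35116 promoters, 0.441% held the 3-unit element on either strand and 5.78% held the 2-unit form GAANNTTC, which every 3-unit element contains. Of the 26 heat shock genes with a promoter in the table, 6 held the 3-unit and 12 the 2-unit form at any of their starts. Counted the same way per gene, 0.557% and 7.05% of all genes with a promoter there held them. Without LPS, 4 of 8 members called in the mean response and 8 of 18 not called held the 2-unit form. With LPS it was 8 of 15 called and 4 of 11 not called. The 3-unit element was in 2 of the 8 called without LPS and 5 of the 15 called with LPS. The next shares cover only genes whose promoter was searched. Among those called higher in the mean response, 8 of 356 (2.25%) held the 3-unit element without LPS and 13 of 903 (1.44%) with LPS. Among those called lower it was 2 of 351 (0.57%) and 3 of 1093 (0.274%), and among the genes tested 54 of 12082 (0.447%). Members of the heat shock list are among these genes.

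Some chaperones of other kinds rose in the mean of both lines as well. Of the 8 subunits of TRiC, the ring that folds actin and tubulin, CCT3 and CCT4 rose without LPS, beside 2.6% of all genes. With LPS 7 of 8 rose, beside 6.69%, with median changes of 0.25 in shNR4A2 and 0.32 in shNR4A3. The difference with LPS was below 0 in all 8 (-0.14 to -0.04), with 0 of 8 at an unadjusted p under 0.05. Over all genes it was above 0 for 8782 of 17720. Of 24 organelle chaperones, 5 rose in each state, beside the same shares of all genes, HSPD1, HSPE1, DNAJA3, DNAJC10 and SERPINH1. HSPE1, the mitochondrial co-chaperonin, had the smallest interaction p of that list with LPS, with changes of 0.33 in shNR4A2 and 0.61 in shNR4A3 and a difference of -0.28 (95% interval -0.63 to 0.08).

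The 13 protein-coding genes of mitochondrial DNA, which encode subunits of the respiratory chain, had median changes of 0.57 without LPS and 0.54 with LPS in shNR4A2. In shNR4A3 these medians were 0.52 and 0.24. Without LPS 0 of 13 were called in the mean response, beside 2.6% of all genes that rose and 2.71% that fell. With LPS MT-CO2 and MT-ND4 rose, beside 6.69% of all genes, and their differences between lines were -0.02 and 0.35. With LPS 11 of 13 had the larger change in shNR4A2, the median difference was 0.35 beside 0.00 over all genes, and 0 of 13 had an unadjusted interaction p under 0.05. MT-ND4, a subunit of complex I, was 1494, 1500 and 2640 CPM at 5% CO2 and 3869, 2678 and 3372 CPM at 10% CO2 in shNR4A2 with LPS, and 1884, 1892 and 2223 against 3253, 1918 and 3093 CPM in shNR4A3. MT-ND4 groups did not overlap in shNR4A2, and in shNR4A3 replicate 2 at 10% CO2 lay among the 5% CO2 libraries. It rose by 0.64 ± 0.18 in the mean of both lines (adjusted p = 0.039), a call lost in 8 of 12 fits with 1 library left out, weakest without shNR4A2 at 5% CO2 replicate 2 (0.0927).

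MT-CO3, a subunit of cytochrome c oxidase, was 1293, 1172 and 1927 CPM against 3253, 1776 and 2421 CPM in shNR4A2 with LPS, and 1701, 1592 and 1836 against 2253, 1433 and 2217 CPM in shNR4A3. The MT-CO3 groups overlapped in both lines, and its difference was 0.56 (95% interval -0.23 to 1.34), or 0.31 to 0.81 with any 1 library left out. Replicate 2 of shNR4A3 at 10% CO2 with LPS had the lowest mitochondrial share of its group, 1.52% of counts, and that library's part in the smaller median was not tested beyond these ranges. MT-CO1 differed by 0.54 (95% interval -0.34 to 1.43). Of 38 nuclear subunits of complexes I to IV, 0 were called without LPS and 2 fell with LPS, among them SDHA, beside 7.93% of all genes that fell. Of 27 genes that transcribe or maintain mitochondrial DNA, 4 rose without LPS, beside 2.6% of all genes, and 5 rose with LPS, beside 6.69%, among them MTERF3 at 0.46 and 0.45.

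**Figure D4:**
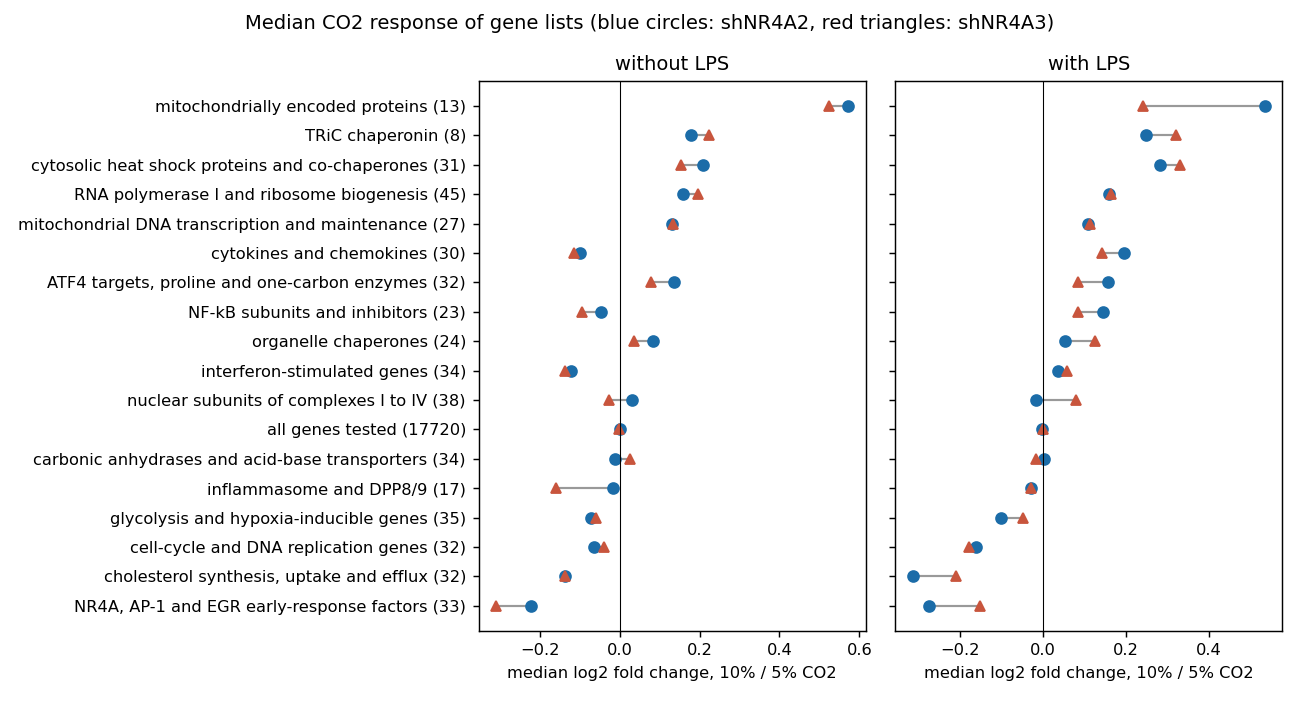
Median log2 fold change at 10% against 5% CO2 of the members of each gene list and of all genes tested, for shNR4A2 and shNR4A3, without and with LPS. The mitochondrially encoded genes have medians of 0.54 in shNR4A2 and 0.24 in shNR4A3 with LPS, and the cytosolic heat shock genes 0.28 and 0.33.

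Genes of ribosome production that passed in the mean of both lines mostly rose. Of 45 genes of RNA polymerase I and ribosome biogenesis, 11 rose without LPS, beside 2.6% of all genes, and with LPS 21 rose, beside 6.69%, and UBTF, the RNA polymerase I factor, fell by 0.60 ± 0.09. In a single line, 0 rose in shNR4A2 and 1 in shNR4A3 without LPS, and 6 rose in each with LPS, beside 0.57% and 0.604% of all genes. POLR1A, the largest subunit of RNA polymerase I, was 49.0, 56.7 and 66.2 CPM against 101, 98.0 and 92.6 CPM in shNR4A2 with LPS, and 72.4, 77.6 and 80.1 against 108, 126 and 104 CPM in shNR4A3. POLR1A did not overlap between CO2 levels in either line and rose by 0.76 ± 0.10 and 0.55 ± 0.10 (adjusted p = 0.012 and 0.0235), with a difference of 0.21 (95% interval -0.11 to 0.52). Of 32 ATF4 targets and enzymes of proline and one-carbon metabolism, 4 rose without LPS and 5 with LPS, beside 2.6% and 6.69% of all genes, PYCR1 and ALDH1B1 in both states. ATF5 had the smallest interaction p of that list without LPS, 0.0381 unadjusted, at a difference of 0.26.

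TNF, an inflammatory cytokine, fell without LPS in the mean of both lines. It was 25.3, 45.1 and 29.1 CPM at 5% CO2 and 15.5, 10.7 and 19.7 CPM at 10% CO2 in shNR4A2 without LPS, and 9.41, 18.1 and 16.6 against 7.66, 4.59 and 11.02 CPM in shNR4A3. TNF groups did not overlap in shNR4A2 and overlapped in shNR4A3, where the level at 5% CO2 was lower, and the log2 changes were -1.11 ± 0.34 and -0.93 ± 0.36. The mean response fell by 1.02 ± 0.25 (adjusted p = 0.0388), a call lost with the block within line (0.131) and in 7 of 12 fits with 1 library left out, weakest without shNR4A3 at 5% CO2 replicate 2 (0.0953). The difference was -0.18 with an interval of -1.26 to 0.91 without LPS, and -0.02 (-0.34 to 0.31) with LPS, where TNF was at 769 to 1103 CPM. Of 30 cytokines and chemokines tested, TNF, CXCL8 and TNFSF9 fell without LPS, beside 2.71% of all genes, and 0 rose, while IL23A and IL12B rose with LPS and 0 fell. These 2 of 30 are a share close to the 6.69% of all genes that rose with LPS. IL23A, a subunit of interleukin-23, changed by 0.79 and 0.83 and IL12B by 0.79 and 0.85 in shNR4A2 and shNR4A3. OSM, a cytokine of the interleukin-6 family, was 2.60, 3.92 and 1.92 CPM against 2.26, 1.99 and 3.46 CPM in shNR4A2 without LPS, and 5.93, 5.21 and 5.56 against 2.53, 2.61 and 3.46 CPM in shNR4A3, with a difference of 0.85 (95% interval 0.09 to 1.62, unadjusted p = 0.0306). OSM overlapped in shNR4A2 and did not in shNR4A3, where its fall passed with the block within line (adjusted p = 0.0434).

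Early-response factors and regulators of NF-kB that passed without LPS mostly fell. For the lists that follow, 2.71% of all genes fell and 2.6% rose without LPS, and 7.93% fell and 6.69% rose with LPS. Of 33 early-response genes 9 fell and 2 rose without LPS, the 9 including FOSB, JUND, MAFF, KLF6 and ZFP36, and 6 fell and 1 rose with LPS. The median changes were -0.22 in shNR4A2 and -0.31 in shNR4A3 without LPS. Of 23 NF-kB genes, RELB, NFKBIA, NFKBID and BCL3 fell without LPS, and with LPS IKBKB, IKBKE and TRAF2 rose and NFKBID fell. Of 34 interferon-stimulated genes 2 fell without LPS, and with LPS 4 rose and 1 fell. Of 17 inflammasome and DPP8/9 genes tested, PANX1 and DPP8 fell without LPS and NLRP3 and DPP8 with LPS. CARD16, a caspase-1 regulator with a near-identical neighbour, had an unadjusted interaction p of 0.0351 with LPS at a difference of -0.61. The member with the smallest interaction p among the NF-kB genes was NFKB2 at 0.24 (unadjusted p = 0.136) without LPS.

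Genes of cholesterol handling were the metabolic list with the most members that fell with LPS. Of 32 genes of cholesterol synthesis, uptake and efflux, 5 fell and 1 rose without LPS, beside 2.71% and 2.6% of all genes, and 15 fell and 2 rose with LPS, beside 7.93% and 6.69%. SQLE, the squalene epoxidase, was 205, 195 and 181 CPM against 156, 125 and 140 CPM in shNR4A2 with LPS, and 118, 132 and 108 against 89.1, 76.1 and 93.3 CPM in shNR4A3. SQLE did not overlap between CO2 levels in either line, and its changes were -0.47 in both, with a difference of 0.00 (95% interval -0.31 to 0.31). MSMO1, another enzyme of the pathway, had changes of -0.34 and 0.04 and an unadjusted interaction p of 0.0269 with LPS. Of 35 glycolytic and hypoxia-inducible genes tested, 0 were called without LPS and 6 fell and HIF1A rose with LPS, and of 32 cell-cycle genes tested, 0 were called without LPS and 10 fell and 3 rose with LPS. Among 34 acid-base genes tested, 3 rose and 1 fell without LPS and 5 rose and 1 fell with LPS. The same shares of all genes stand beside these counts. In the mean of both lines, SLC4A7, a sodium bicarbonate cotransporter, rose by 0.76 ± 0.15 without LPS and 0.95 ± 0.12 with LPS. SLC16A9, a monocarboxylate transporter family member, rose by 1.34 ± 0.18 without LPS and 1.42 ± 0.19 with LPS in that mean. HVCN1, the voltage-gated proton channel, had changes of -0.35 in shNR4A2 and 0.06 in shNR4A3 and an unadjusted interaction p of 0.0183 with LPS. Of the cell type markers tested, 1 of 18 monocyte markers fell with LPS and 0 of the others were called in either state.

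Among the genes with the smallest p for the mean response, CYTH2 changed by nearly the same amount in the 2 lines without LPS. CYTH2, a guanine nucleotide exchange factor for ARF GTPases at chr19:48469032-48482314, was 77.0, 89.9 and 74.6 CPM at 5% CO2 and 50.2, 53.3 and 52.9 CPM at 10% CO2 in shNR4A2 without LPS, and 77.1, 76.5 and 69.3 against 47.4, 47.0 and 49.5 CPM in shNR4A3. CYTH2 did not overlap between CO2 levels in either line and fell by 0.63 in both, with a difference of 0.01 (95% interval -0.27 to 0.28). It was the only gene called in both lines without LPS (adjusted p = 0.0401 and 0.0248), though the call of a single line was lost in 10 and 5 of 12 fits with 1 library left out. With LPS it fell by 0.74 and 0.66, a difference of -0.08 (95% interval -0.39 to 0.24). SLC6A6, the taurine transporter, was 77.9, 78.1 and 58.1 CPM against 42.1, 32.0 and 39.9 CPM in shNR4A2 with LPS, and 62.1, 62.5 and 47.4 against 25.5, 18.7 and 27.6 CPM in shNR4A3. SLC6A6 did not overlap in either line, and fell by 0.91 and 1.26, with a difference of 0.35 (95% interval -0.15 to 0.85).

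With LPS the smallest p for the mean response belonged among rising genes to REPIN1, URB1, FRY, POLR1A and SEPTIN11, with changes of 0.53 to 0.78 in either line, and among falling genes to CYTH2, SLC6A6, EVI2B, WIPI2 and CCNG1. Without LPS they were SLC39A14, SERPINB2, FKBP4, ALDH1B1 and SLC16A9 among rising genes, and CYTH2, SLC6A6, ATP2A1, BTG2 and RIPK1 among falling genes. The smallest differences between lines among the 100 genes with the smallest p for the mean response, a description since they were chosen for it, were in XRRA1, SEMA6A, EWSR1, CYTH2 and EIF2B3 without LPS, and in SIK3, ULK1, SRPRB, ENDOV and ATG13 with LPS. ULK1 and ATG13 both act at the start of autophagy, and they fell by 0.46 in each line and by 0.57 and 0.58.

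At the other end, those of the same 100 genes with the widest gap between lines changed in the same direction in both, and called genes outside these 100 had wider gaps. SMIM14, a small membrane protein gene, was 16.4, 14.1 and 16.5 CPM against 11.6, 10.96 and 11.7 CPM in shNR4A2 with LPS, and 14.6, 15.3 and 16.0 against 8.69, 7.51 and 8.58 CPM in shNR4A3, with changes of -0.46 and -0.89 and a difference of 0.43 (95% interval 0.09 to 0.77). HUWE1, a ubiquitin ligase, was 247, 286 and 355 CPM against 566, 510 and 554 CPM in shNR4A2 with LPS, and 333, 332 and 418 against 543, 511 and 442 CPM in shNR4A3, with changes of 0.88 and 0.47 and a difference of 0.41 (95% interval 0.02 to 0.79). TP53INP2, an autophagy-linked nuclear protein, was 61.5, 57.8 and 57.8 CPM against 44.1, 46.1 and 52.4 CPM in shNR4A2 without LPS, and 33.7, 31.1 and 32.8 against 19.4, 19.4 and 22.2 CPM in shNR4A3. None of the groups of SMIM14, HUWE1 or TP53INP2 overlapped between CO2 levels within a line. TP53INP2 fell by 0.68 ± 0.10 in shNR4A3 (adjusted p = 0.0248), its change in shNR4A2 was -0.31 ± 0.10, and the difference was 0.37 (95% interval 0.07 to 0.66, unadjusted p = 0.0168). LGR4, DAPK1 and ANO5 with LPS had differences of -0.38, 0.37 and 0.37 with intervals that included 0, and so did NEU4, ECE2, ENSG00000163009 and ENSG00000227076 without LPS.

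The study named 24 genes as shared by the CO2 response of its lines and a further 13 were taken from its text on how the depleted lines compared, WNT7B for its level and not for a response in 1 line only. Both sets rest on these samples, so their counts are not independent evidence. For both sets, the share of all genes called in the mean response was 5.31% without LPS and 14.6% with LPS. Of the 24 shared genes, 19 were called in the mean response without LPS (11 rose and 8 fell) and 23 with LPS (12 rose and 11 fell). Of these 24, 0 had an unadjusted interaction p under 0.05 in either state. Of the 13 genes, 3 were called in the mean response without LPS and 6 with LPS, and NR4A3 was the only one with an unadjusted interaction p under 0.05, in both states. For 3 of the 13 without LPS and 4 with LPS the interval lay within 2-fold, so for the rest a 2-fold difference between lines was within the error. SLAMF1, a receptor of the SLAM family, was 2.14, 2.74 and 5.97 CPM against 6.64, 11.7 and 9.91 CPM in shNR4A2 with LPS, and 0.924, 0.239 and 1.72 against 2.72, 4.41 and 3.31 CPM in shNR4A3. SLAMF1 groups did not overlap in either line and its changes were 1.37 and 1.80, with a difference of -0.43 and an interval of -1.95 to 1.09. WNT7B, a secreted WNT ligand, was 30.5, 57.3 and 23.6 CPM against 12.8, 13.1 and 16.1 CPM in shNR4A2 with LPS, and 3.80, 12.9 and 7.21 against 2.01, 2.15 and 4.71 CPM in shNR4A3. The WNT7B levels of the 2 lines did not overlap at either CO2 level, while its change was -1.41 in each and the difference 0.00 (95% interval -1.55 to 1.56).

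**Figure D5:**
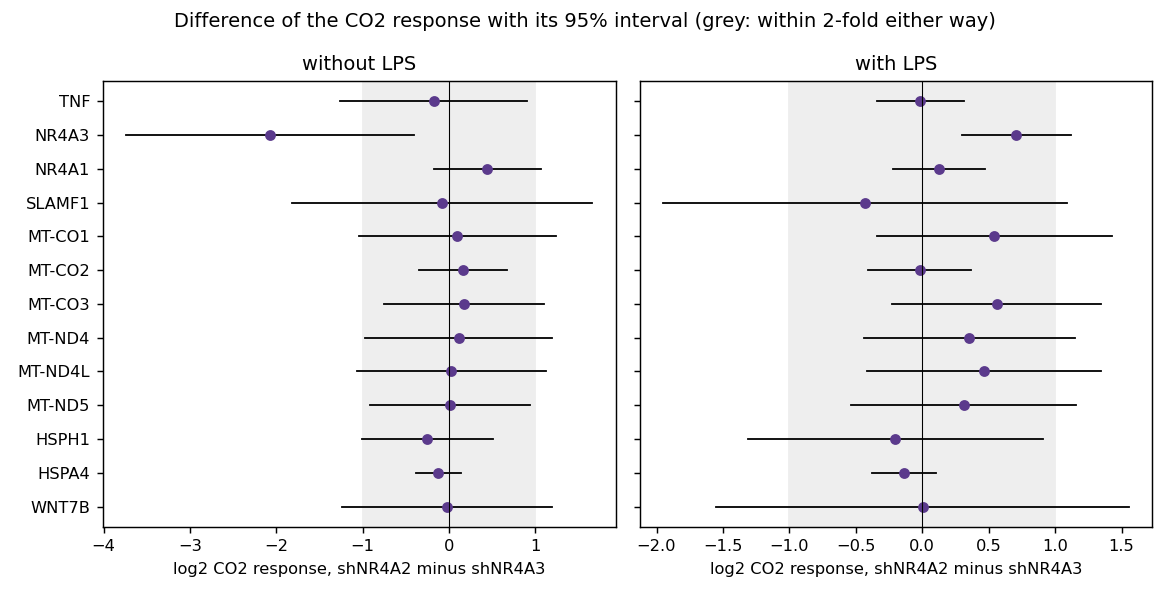
Difference between the CO2 responses of the 2 lines (log2, shNR4A2 minus shNR4A3, horizontal axis) with its 95% interval for the 13 genes taken from the study's text on how its depleted lines compared, without and with LPS, with grey marking the range within 2-fold. NR4A3 with LPS lies at 0.71 with an interval of 0.30 to 1.12, and all intervals but the 2 of NR4A3 cross 0.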

How the data were processed

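Poly(A)-selected RNA was sequenced as paired ends. Per the study's methods and the submitters' processing notes, reads were trimmed with Trimmomatic 0.36, mapped to GRCh38 with STAR 2.5.2b and counted per gene from unique hits with featureCounts of Subread 1.5.2. The authors deposited these whole-number counts per gene and library, not normalised. Which annotation release and strand option were used, and whether the unit counted was the read or the fragment, is not given in the sources used here. No columns of the authors' own comparisons were used.

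Groups and replicate numbers came from the sample titles. Of 57500 gene IDs, 56410 (98.1%) were matched to symbols. Genes were kept by filterByExpr over all 36 libraries and 12 conditions (minimum count 10, minimum total 15), which left 17720. In R 4.3.3, edgeR 4.0.16 (TMM, robust glmQLFit and glmQLFTest, limma 3.58.1) was fitted per state to 12 libraries with a mean for each of 4 conditions, giving the CO2 response of each line, their mean and their difference. A fit to 24 libraries gave the difference between states. P-values were adjusted by Benjamini-Hochberg over all genes tested. Standard errors and 95% intervals are Wald values from the same fit, which has no replicate block. The fits were tested on simulated counts. DESeq2 1.42.0, the study's own tool, was an alternative, and expression levels between genes were not compared. The biological coefficient of variation was 11.6% without LPS and 12.6% with LPS. Depth covers counting error only. Replicates differed by more than sampling noise, with a chi-square per degree of freedom of 6.63 to 29.6 over 24 pairs, and 0 pairs of libraries were identical.

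Equal replicate numbers were checked for pairing on the correlation of deviations from group means over genes of at least 10 CPM. Within lines and without LPS it was 0.472 to 0.615 in shNR4A2 and 0.101 to 0.503 in shNR4A3, every pair above 0.1, so the numbers were taken to pair these libraries. With LPS it was 0.0644 to 0.641 and -0.0809 to 0.649, and they were not taken to pair CO2 levels within a line. Between the lines at the same CO2 level it was 0.344 to 0.645 without LPS and 0.395 to 0.844 with LPS, every pair above 0.1, so a block over both lines is given beside the counts. That block spans both CO2 levels, and a block within each CO2 level was not fitted. The labels do not say what a number marks.

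Genes were named by a rule: the NR4A family, the study's lists of 24 and 13 genes, the 5 genes in each direction with the smallest interaction p at a mean of at least 1 CPM, the member of each list with the smallest interaction p, the 5 in each direction with the smallest p for the mean response, and the 5 largest and 5 smallest differences among the 100 genes with the smallest p for the mean response. Values are printed for only some of them, with others not reported here, and further list members named as examples were chosen after their values were seen. The members and lists were chosen with earlier results of these data known. Promoters came from RefSeq tables of GRCh38.p14.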

Additional observations from a re-analysis of the deposited data

How the results depend on the processing

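The counts of genes whose response differed between lines, and of the difference between states, were 0 at adjusted p under 0.05 under every alternative and with any library left out. At adjusted p under 0.10 they were 0 too, except for 1 gene in the difference between states with no filter (adjusted p = 0.0843). Their unadjusted p under 0.05 was reached by 161 to 931 genes without LPS and 241 to 428 with LPS when 1 library was left out, the 931 without shNR4A2 at 5% CO2 replicate 2. The replicate blocks that were fitted changed no call of an interaction. They gave 495 genes (additive) and 525 (within line) at an unadjusted p under 0.05 without LPS, and 395 and 337 with LPS.

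Counts for single lines depended on the setting, and the cause was not tested. DESeq2 and the fit with no filter tested 44121 genes without LPS and 45513 with LPS. The filter at 1 CPM left 13796 with LPS, and the other settings below tested 17720. Without LPS, shNR4A2 (1 gene as reported) had 141 by DESeq2, 170 with no filter, 582 with the replicate block, 403 with the block within line, 2 from its own 6 libraries, 9 and 58 from fits to 24 and 36 libraries, 28 at adjusted p under 0.10, and 0 to 9 with 1 library left out. For shNR4A3 (17) these were 268, 354, 919, 753, 200, 43, 107, 46 and 0 to 116. With LPS, shNR4A2 (186) had 976, 1158, 1308, 481, 35, 773, 1009, 824 and 0 to 1335, with 61 when scaled by library size only and 316 with a filter at 1 CPM, and shNR4A3 (219) had 865, 1027, 1086, 389, 378, 594, 860, 746 and 0 to 504. The mean response without LPS (941) had 1455 by DESeq2, 2837 with the replicate block, 2705 within line, 1716 at adjusted p under 0.10 and 211 to 1274 with 1 library left out, and with LPS (2592) 4075 with the replicate block and 1474 to 3399.

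Of the 162 interactions of named genes, 0 were called under any alternative, and 217 of 3563 values had the other sign, in 60 interactions whose reported size was at most 0.52. Choosing the shNT genes at adjusted p under 0.10 or as the 200 with the smallest p put the median aligned difference between lines at -0.0166 and -0.0115 without LPS, and -0.00468 and 0.0317 with LPS. Small differences cannot be seen at the spread of the fit without a replicate block. Its median standard error of a difference was 0.23 without LPS and 0.25 with LPS. Standard errors with a block are not reported here.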
